A study of Danio rerio with 2 samples.

Results

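The genes described here are *chuk* (RefSeq NM_200317) and *ikbkb* (RefSeq NM_001123265), which encode the IκB kinases IKKα and IKKβ. They are 2 of the 84 pathway genes on the zebrafish mTOR Signaling PCR array, chosen by their symbols because these kinases act downstream of NOD1 and its adaptor RIPK2. On the plate *chuk* was read in well A7 and *ikbkb* in well C1, with 1 primer pair and 1 well per replicate. The groups were WT zebrafish (AB/TU) and *NOD1-1IS*-/- zebrafish, homozygous for an insertion in *NOD1* made with Cas9 and a guide RNA. Both were whole larvae at 10 dpf, and each genotype had 3 biological replicates of 200 to 250 pooled larvae. The mutant values come from 1 line. In pools of whole larvae, a smaller number of expressing cells and less RNA per cell cannot be told apart. The plate carries no *nod1* assay, so the genotype was not checked by transcript. Transcripts of the plate that are largely restricted to 1 cell type include *ins*, the preproinsulin gene of pancreatic beta cells, and *acta1b*, a skeletal muscle actin. Relative to *hprt1*, *nono* and *rpl13a*, *ins* was higher in the mutants by 0.86 on the log2 scale (limma adjusted p = 0.0110). The raw Ct of *acta1b* was 0.702 cycles later in the mutants, with overlapping replicates (exact permutation p = 0.2). This value is not on the same measure as that of *ins*, because the mean Ct of the 3 reference genes was itself 0.303 cycles earlier in the mutants. The part of the *ins* and *acta1b* shifts in the results was not tested.

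NOD1 is an intracellular sensor of bacterial peptidoglycan. In mammals, where these roles were worked out, it recruits RIPK2, which leads to activation of the IκB kinase complex of IKKα, IKKβ and the regulatory subunit NEMO. IKKβ phosphorylates IκB proteins so that they are degraded and NF-κB enters the nucleus, whereas IKKα also drives the noncanonical route through processing of the NF-κB2 precursor. Both kinases also touch mTOR signaling in mammalian cells, IKKβ through the mTORC1 suppressor TSC1 and IKKα through the mTORC1 component raptor.

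Of these kinases, *ikbkb* differed more between the genotypes, and it was number 14 of the 84 pathway genes by the size of its difference. It was 1.41-fold lower in *NOD1-1IS*-/- than in WT relative to *hprt1*, *nono* and *rpl13a*. In contrast, *chuk* was 1.04-fold lower with an interval that includes no change. The lower level of *ikbkb* depended on the reference genes and on single replicates, as given below for each. The distance between *ikbkb* and *chuk* on the same plate, which needs no reference gene, was 0.44 cycles wider in the mutants and did not pass the threshold over all genes.

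Expression was read as the threshold cycle (Ct), the cycle at which the fluorescence of a well crosses a set level. If every cycle doubles the product, Ct is a log2 scale read backwards, so that an earlier Ct means more template. All 534 gene wells of the 6 replicates gave a Ct, between 14.6 and 29.0 cycles, so both kinases were read well before the last of the 40 cycles. The plate also carries 3 wells of a fixed template per replicate, the positive PCR control, which had a mean Ct of 19.3 to 19.7 per replicate, and the SD of its 3 wells was 0.0267 to 0.182 cycles. This SD is a measure of the error of a single well.

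For *ikbkb*, the raw Ct was 25.6, 25.3 and 25.4 in WT replicates 1, 2 and 3, and 25.4, 25.5 and 25.9 in *NOD1-1IS*-/- replicates 1, 2 and 3. Before normalization the genotypes overlapped, and *NOD1-1IS*-/- replicate 3 had the latest Ct of the 6. The mean rose by 0.196 cycles from WT to *NOD1-1IS*-/- (two-sided exact permutation test, p = 0.4). In the same replicates the reference mean of *hprt1*, *nono* and *rpl13a* fell by 0.303 cycles. It was 19.6 ± 0.123 (SD, n = 3) in WT larvae and 19.3 ± 0.0715 (SD, n = 3) in *NOD1-1IS*-/- larvae. The difference in ΔCt reported next is the sum of these shifts, and the fall of the reference mean is the larger of them. The positive PCR control, a fixed template, also fell by 0.213 cycles from WT to *NOD1-1IS*-/- (exact permutation p = 0.1). Its genotypes were only 0.0155 cycles apart at the nearest, below the smallest SD of its repeated wells (0.0267 cycles). The control came earliest in *NOD1-1IS*-/- replicate 1. The part of an offset like that of the control in the fall of the reference mean was not tested.

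The ΔCt of *ikbkb*, its Ct minus the mean Ct of these 3 reference genes, was 5.89, 5.82 and 5.64 cycles in WT replicates 1, 2 and 3. In *NOD1-1IS*-/- replicates 1, 2 and 3 it was 6.17, 6.09 and 6.59 cycles. All mutant replicates lay above all WT replicates, with a gap of 0.195 cycles between the nearest ones, and replicate 3 of *NOD1-1IS*-/- stood farthest out. The mean was 5.79 ± 0.13 (SD, n = 3) in WT larvae and 6.28 ± 0.27 (SD, n = 3) in *NOD1-1IS*-/-. The log2 fold change was −0.50 (standard error 0.15, 95% interval −0.82 to −0.17, limma adjusted p = 0.0383 by Benjamini-Hochberg over 84 genes). This is expression at 0.708 of the WT level, with an interval of 0.565 to 0.886. The two-sided exact permutation test gave p = 0.1, and no smaller p can be reached with 3 replicates per genotype. On the linear scale of 2 to the power of −ΔCt, the values were 0.0168, 0.0176 and 0.0200 in WT and 0.0139, 0.0147 and 0.0104 in *NOD1-1IS*-/-. The authors' deposited means for this gene are 0.0181 in WT and 0.0128 in *NOD1-1IS*-/-.

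For *chuk*, the raw Ct was 21.9, 22.1 and 22.0 in WT replicates 1, 2 and 3, and 21.7, 21.8 and 21.8 in the *NOD1-1IS*-/- replicates. The raw values did not overlap, and the mutant mean fell by 0.246 cycles (two-sided exact permutation test, p = 0.1), which is a shift in the same direction as that of the reference genes. The ΔCt of *chuk* was 2.21, 2.58 and 2.25 cycles in WT and 2.45, 2.36 and 2.41 cycles in *NOD1-1IS*-/-. Here the 3 mutant values lay inside the range of the WT values, which was set by WT replicate 2. The mean ΔCt was 2.35 ± 0.20 (SD, n = 3) in WT larvae and 2.40 ± 0.05 (SD, n = 3) in *NOD1-1IS*-/-. The log2 fold change was −0.06 (standard error 0.12, 95% interval −0.33 to 0.21, adjusted p = 0.771 from limma), and the exact permutation test gave p = 0.7. The interval corresponds to expression between 0.798 and 1.16 of the WT level. With 3 replicates per genotype, the data do not exclude a difference of *chuk* within these bounds.

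**Figure D1:**
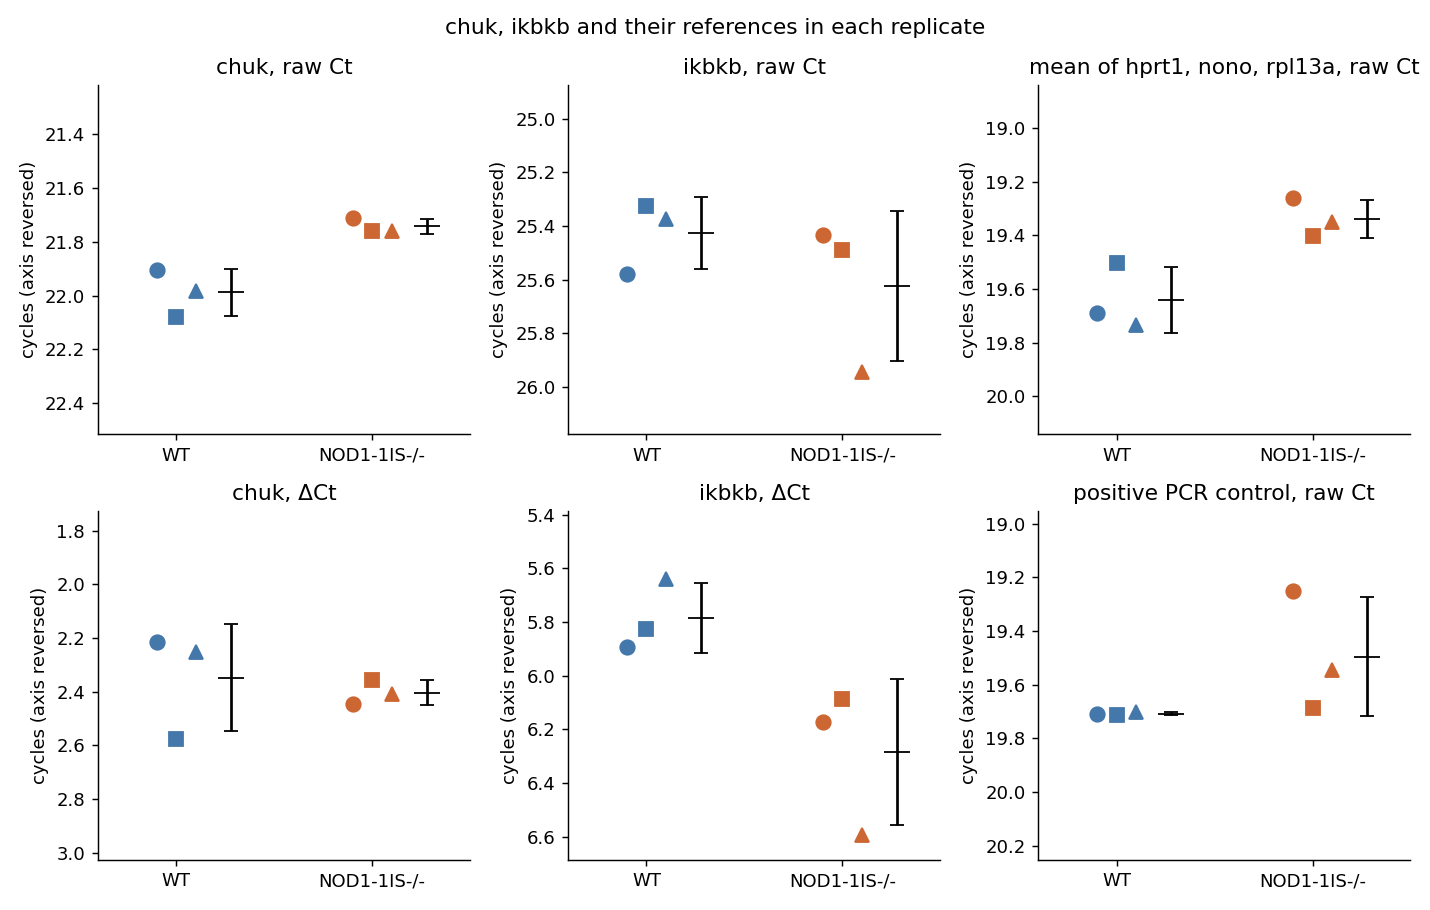
Threshold cycles of *chuk*, *ikbkb*, the mean of *hprt1*, *nono* and *rpl13a* and the positive PCR control in each replicate (circle, square and triangle for replicates 1, 2 and 3), on reversed axes in cycles so that more template is higher. The black bars give the mean and SD of 3 replicates. The ΔCt of *ikbkb* lies between 6.09 and 6.59 in *NOD1-1IS*-/- and between 5.64 and 5.89 in WT. Its raw Ct overlaps between the genotypes, while the raw Ct of *chuk*, of the reference mean and of the positive PCR control does not. For the control the genotypes are only 0.0155 cycles apart at the nearest, below the smallest SD of its repeated wells.

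Among the 84 pathway genes, 16 passed the threshold (limma, adjusted p under 0.05) as lower in the mutants (19%) and 3 as higher (3.57%), so 22.6% of all genes were called. Of the IκB kinases 1 of 2 was called, a number too small to set against that share. The replicates did not overlap for 38.1% of the 84 genes, and *ikbkb* was among these. The median log2 fold change of the 84 genes was −0.11. Relative to this median, a position that no choice of reference alters, *ikbkb* was at −0.39 and *chuk* at 0.06. Ordered from the lowest log2 fold change, *ikbkb* was number 12 of 84 and *chuk* number 51. The replicate spread also differed between the kinases. Ordered from the smallest SD of ΔCt, *chuk* was number 9 of 84 in *NOD1-1IS*-/- and number 69 in WT, and *ikbkb* was number 69 in *NOD1-1IS*-/- and number 44 in WT.

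**Figure D2:**
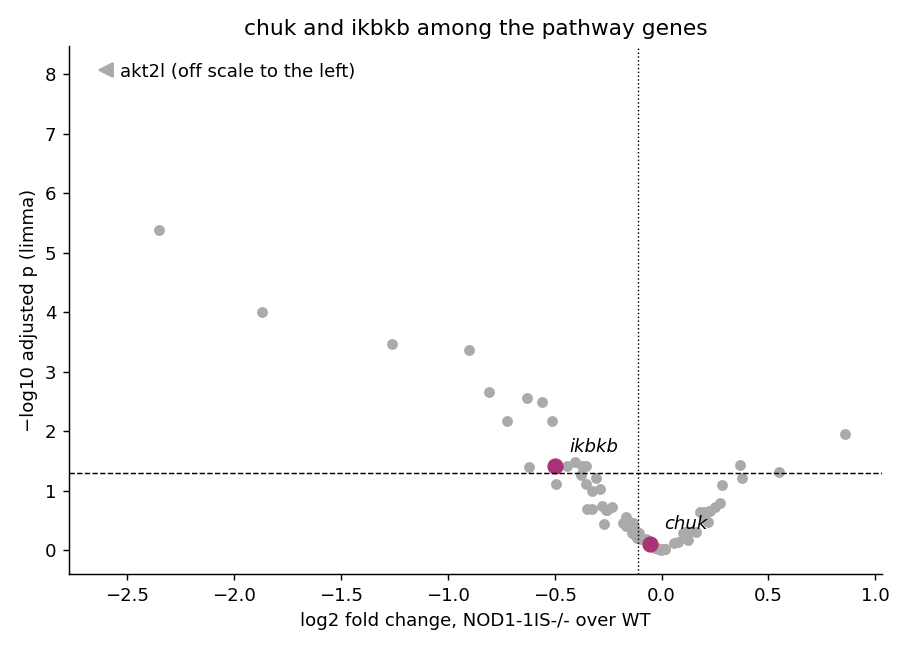
Log2 fold change of *NOD1-1IS*-/- over WT (horizontal axis) and −log10 of the adjusted p from limma (vertical axis) of the 84 pathway genes, each a grey point, with *chuk* and *ikbkb* in purple. The dashed line marks an adjusted p of 0.05 and the dotted line the median log2 fold change of −0.11, and the arrowhead marks *akt2l*, which lies off scale to the left. The point of *ikbkb* at −0.50 lies just above the dashed line, and *chuk* at −0.06 lies close to the median.

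The 2 wells of a replicate can be compared directly, because the Ct of *ikbkb* minus that of *chuk* cancels the reference genes and any offset of the plate. This distance was 3.68, 3.25 and 3.39 cycles in WT replicates 1, 2 and 3, and 3.72, 3.73 and 4.19 cycles in *NOD1-1IS*-/- replicates 1, 2 and 3. The genotypes did not overlap, but WT replicate 1 and *NOD1-1IS*-/- replicate 1 were only 0.0482 cycles apart, which is within the spread of repeated wells of the positive PCR control. Of the 83 genes set against *ikbkb* in this way, 66.3% did not overlap. The mean was 3.44 ± 0.22 cycles (SD, n = 3) in WT larvae and 3.88 ± 0.26 cycles (SD, n = 3) in *NOD1-1IS*-/-. Each gene has its own primer pair of unstated efficiency, so the distance is not read as a ratio of the transcripts, and only its change between the genotypes is used.

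The distance widened by 0.44 cycles in *NOD1-1IS*-/- (standard error 0.18, 95% interval 0.05 to 0.84, unadjusted p = 0.0308 and adjusted p = 0.0594 from limma over the 83 genes set against *ikbkb*). It therefore missed the threshold after adjustment, and the exact permutation test of the 6 distances gave p = 0.1. Stated as a ratio, *chuk* over *ikbkb* was 1.36 times its WT value, with an interval of 1.03 to 1.79. In the same fit 36.1% of the 83 genes were higher and 4.82% lower relative to *ikbkb* with an adjusted p under 0.05. Set against *chuk* in the same way, 1.2% of 83 genes were higher and 9.64% lower, and *ikbkb* was not among the called ones (adjusted p = 0.120 from limma). These fits hold the same difference with its sign turned and differ only in their standard errors and in the genes adjusted over, and it passed the threshold in neither. Without WT replicate 1 it was 0.56 (adjusted p = 0.0451 from limma), without *NOD1-1IS*-/- replicate 1 it was 0.52 (adjusted p = 0.0486) and without *NOD1-1IS*-/- replicate 2 it was 0.52 (adjusted p = 0.0320). It stayed short of the threshold without WT replicate 2 (0.35, adjusted p = 0.212 from limma), without WT replicate 3 (0.42, adjusted p = 0.164) and without *NOD1-1IS*-/- replicate 3 (0.29, adjusted p = 0.124). Over all alternatives the adjusted p ranged from 0.0309 to 0.212. In the 3 fits without 1 replicate that passed, the interval was narrower for its standard error than with all replicates. Their p-values may therefore be too small.

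**Figure D3:**
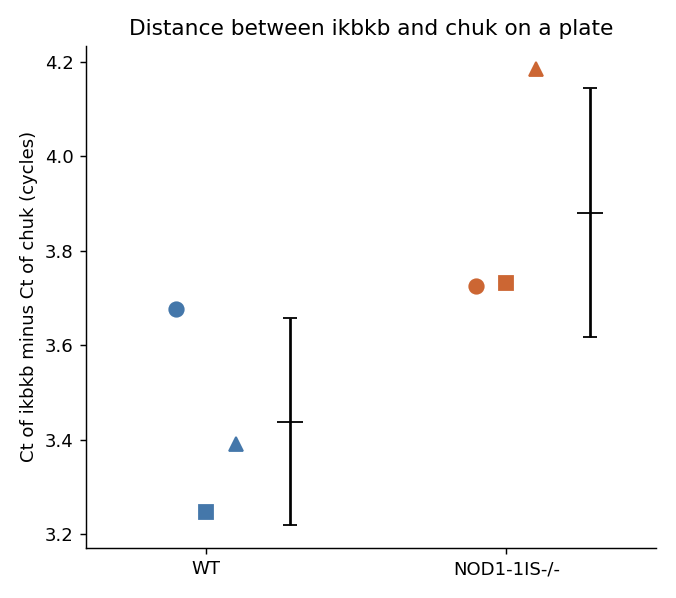
Ct of *ikbkb* minus Ct of *chuk* in cycles for each replicate of WT and *NOD1-1IS*-/- (circle, square and triangle for replicates 1, 2 and 3), with the mean and SD of 3 replicates as black bars. The mean is 3.44 in WT and 3.88 in *NOD1-1IS*-/-, and *NOD1-1IS*-/- replicate 3 at 4.19 lies farthest from the others.

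The size and the call of the *ikbkb* difference changed with the reference genes. Set against each of the 5 reference genes of the plate in turn, *ikbkb* came later in *NOD1-1IS*-/- with 4 of them. The difference was 0.391 cycles against *hprt1*, a purine salvage enzyme, 0.403 against *rpl13a*, a ribosomal protein, and 0.702 against *nono*, an RNA-binding nuclear protein, and with each of these the genotypes did not overlap (p = 0.1 for each in an exact two-sided permutation test). Against *b2m*, the light chain of MHC class I, the difference was 0.0341 cycles with overlapping replicates (exact permutation p = 0.9). Against *acta1b* it was −0.506 cycles, again with overlap (exact permutation p = 0.3). Besides the later Ct of *acta1b*, that of *b2m* rose by 0.162 cycles from WT to *NOD1-1IS*-/-, whereas that of *nono* fell by 0.506 cycles. For *chuk* the genotypes overlapped against all 5 reference genes, with differences from −0.949 cycles against *acta1b* to 0.260 cycles against *nono*.

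Set against the positive PCR control, which is the same template on each plate, *ikbkb* was at 5.87, 5.61 and 5.67 cycles in WT and 6.18, 5.80 and 6.40 cycles in *NOD1-1IS*-/-. The replicates overlapped and the log2 fold change was −0.41 (adjusted p = 0.103 from limma). The control came earliest in *NOD1-1IS*-/- replicate 1, and its part in the result was not tested. Set against the mean of all 84 pathway genes, *ikbkb* was at 2.70, 2.61 and 2.54 cycles in WT and 2.78, 2.72 and 3.11 cycles in *NOD1-1IS*-/-, and the genotypes were 0.0205 cycles apart at the nearest. The log2 fold change was then −0.25 (adjusted p = 0.137 from limma). Of 10 other normalizations, 9 gave a lower level of *ikbkb* in *NOD1-1IS*-/- and 1, *nono* alone, left it past the threshold, and over all its alternatives the adjusted p ranged from 1.85e-04 to 0.859. The direction of *chuk* turned with the reference, being below 0 with 1 of the 10 and above 0 with 9, and it passed the threshold with *b2m* alone and *acta1b* alone, as higher in *NOD1-1IS*-/-.

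Single replicates also moved the call of *ikbkb*. Its log2 fold change was −0.52 without WT replicate 2 (adjusted p = 0.1004 from limma), −0.43 without WT replicate 3 (adjusted p = 0.134) and −0.34 without *NOD1-1IS*-/- replicate 3 (adjusted p = 0.0675). Without each of the other 3 replicates it stayed past the threshold, and the direction was the same in all 6 cases.

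**Figure D4:**
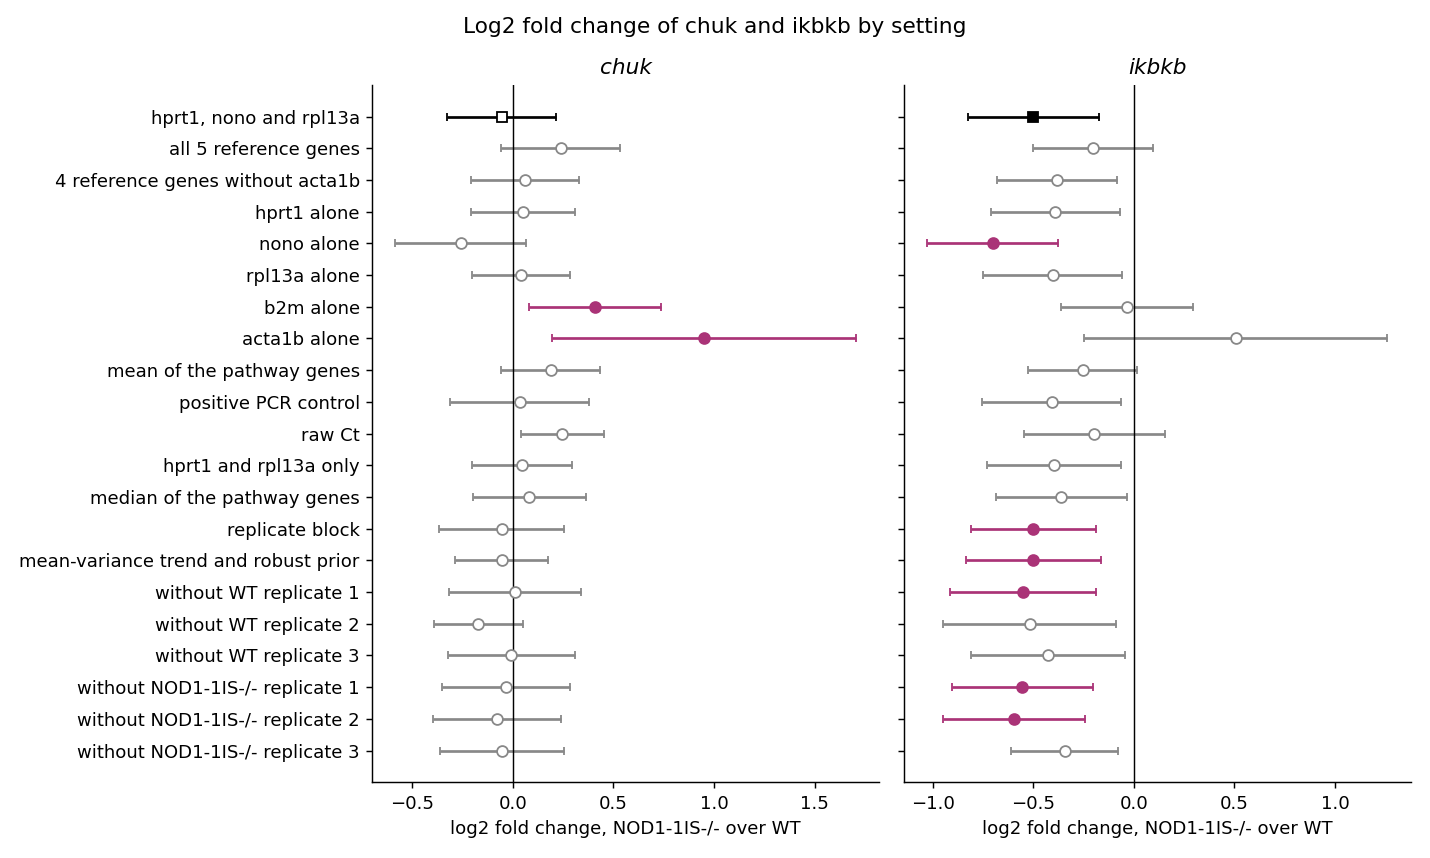
Log2 fold change of *chuk* (left) and *ikbkb* (right) in *NOD1-1IS*-/- over WT with its 95% interval from limma, for the reference genes used (black square at the top) and for each alternative (circles). Filled symbols have an adjusted p under 0.05. The values of *ikbkb* lie between −0.70 and −0.03 except for *acta1b* alone at 0.51, and those of *chuk* lie on both sides of 0.

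To see which genes followed each kinase from replicate to replicate, the Ct of every other pathway gene was set against it, and the SD of this difference over the 6 replicates was taken as the measure of likeness, which needs no reference gene. For *chuk*, the nearest of 83 genes was *rptor*, which encodes raptor, the substrate-recruiting subunit of mTORC1, with an SD of 0.0396 cycles. This SD is as small as that of repeated wells of the positive PCR control. The next were *pik3c3*, the class III PI3 kinase of autophagy and endosomes, at 0.0719 cycles and *rheb*, the GTPase that activates mTORC1, at 0.0803 cycles. Their log2 fold changes were −0.05, 0.01 and −0.07, close to that of *chuk*, and none of them passed the threshold. Within the genotypes, where a shared difference between them plays no part, *rptor* was again the nearest gene, with an SD of 0.0440 cycles.

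The genes nearest to *ikbkb* were others, and none came as close. They were *pik3cb*, a catalytic subunit of class I PI3 kinase, at 0.110 cycles, *deptor*, an inhibitor subunit of the mTOR complexes, at 0.151 cycles, and *akt2*, an Akt kinase, at 0.160 cycles. Their log2 fold changes were −0.38, −0.37 and −0.40, against −0.50 for *ikbkb*, so part of this likeness is the lower level in the mutants. Within the genotypes *pik3cb* was the fifth nearest gene, at 0.0987 cycles, and *deptor* and *akt2* were numbers 17 and 25. The SD between *chuk* and *ikbkb* was 0.325 cycles, which put *ikbkb* at number 69 of 83 from *chuk*. All genes of a replicate share its RNA and its plate, and these SDs over 6 replicates are a description.

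**Figure D5:**
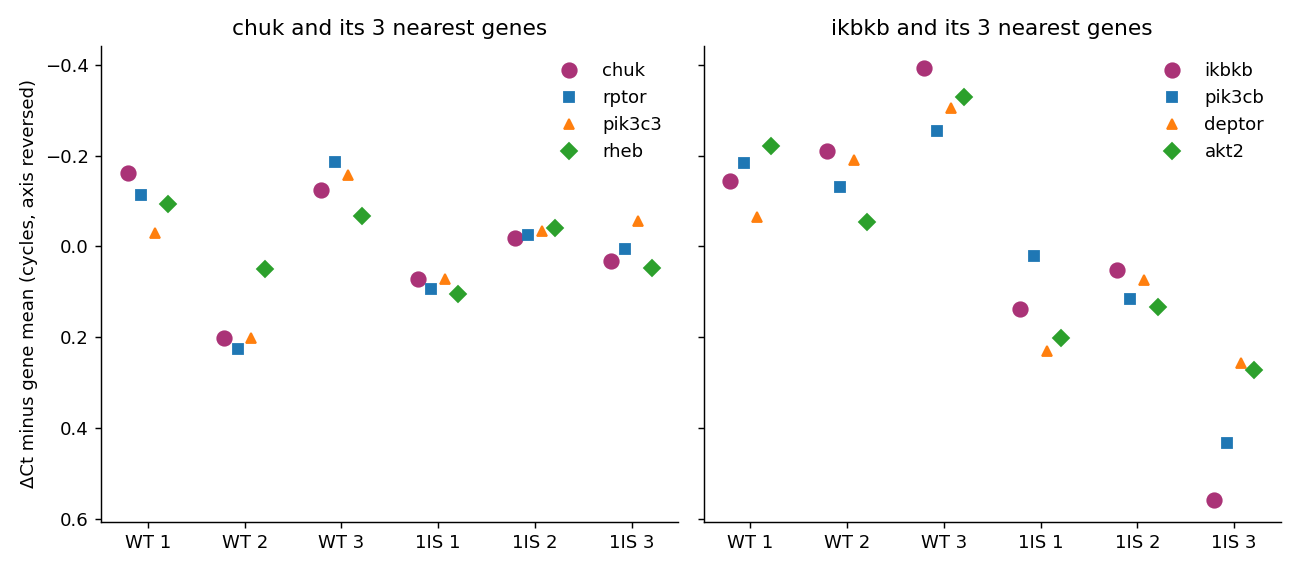
ΔCt of *chuk* (left) and *ikbkb* (right) and of the 3 genes nearest to each, minus the mean of each gene over the 6 replicates, in cycles on a reversed axis so that higher expression is higher. Replicates of WT and of *NOD1-1IS*-/- (1IS) are on the horizontal axis and each symbol is 1 gene. *rptor* lies close to *chuk* in all 6 replicates, and *ikbkb* lies lowest in *NOD1-1IS*-/- replicate 3, where *pik3cb*, *deptor* and *akt2* are also lowest.

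Of 18 genes listed for the route from NOD1 to NF-κB, only the 2 kinases were among the genes of this plate, so other steps of the route are not analysed here. A list of 15 partners and substrates that mammalian work ties to the IκB kinases within insulin and mTOR signaling had 8 measured genes. Of these, 4 (50%) passed the threshold as lower in the mutants, against 19% of all 84 genes, and 0 as higher (limma), and 8 of 8 had a log2 fold change below 0, against 59 of all 84 genes. The median was −0.35, against −0.11 over the 84. Among the 4 were the Akt kinases *akt2l* (−6.30, adjusted p = 8.40e-09 from limma) and *akt2* (−0.40, adjusted p = 0.0324), and *irs1* (−0.90, adjusted p = 4.29e-04), the insulin receptor substrate. The suppressor genes *tsc1b* and *tsc2* were at −0.12 and −0.35, *mtor* at −0.14 and *rptor* at −0.05, and these did not pass the threshold.

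The plate held 23 other protein kinases from a list of 43 candidates. Of these, 5 (21.7%) were lower and 0 higher with an adjusted p under 0.05 (limma), which is close to the 19% of all genes that were lower. Besides *akt2l* and *akt2* these included *prkaa2*, a catalytic subunit of AMPK, at −0.51 (adjusted p = 0.00664) and *rps6ka2*, a ribosomal S6 kinase of the RSK family, at −1.26 (adjusted p = 3.37e-04). The difference of *ikbkb* was thus about the size of that of *prkaa2*, and that of *chuk* was among the smallest of the kinases. The median log2 fold change of the 23 was −0.18, and the other 18 did not pass the threshold.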

How the data were processed

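Per the labels, TRIzol RNA (1000 ng) was reverse transcribed with SuperScript III and read by SYBR Green PCR over 40 cycles. The authors deposited raw Ct values per well and replicate, with threshold and baseline settings not given in the sources used here, and 1 normalized linear ratio (2 to the power of −ΔCt) per gene and genotype. Of the 31 combinations of the 5 reference genes, *hprt1*, *nono* and *rpl13a* matched these ratios best, to within 4.00e-07 on the log2 scale. The authors' deposited fold changes between the genotypes were not used.

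Genotypes were compared on −ΔCt per replicate with limma 3.58.1 in R 4.3.3 (lmFit and eBayes, two-sided, Benjamini-Hochberg over 84 pathway genes, threshold 0.05), with exact permutation tests for single values. The distance of the kinases was tested with limma on Ct relative to *ikbkb*. The fit was tested on simulated data. Named were both kinases, the reference genes, the 3 genes nearest to each kinase and the called members of the gene lists. *ins*, *tsc1b*, *tsc2* and *mtor* were named after their values were seen. Not every called list member is reported by name here. The genes and lists were chosen with earlier results of these data known. Alternatives were other references, each replicate left out, a replicate block, a variance trend with a robust prior and ratios of mean linear values. The references *hprt1* with *rpl13a*, and the median of the pathway genes, were chosen after seeing the data. PCR arrays have no read depth, and 3 replicates with 1 well each limit the precision.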

Additional observations from a re-analysis of the deposited data

How the results depend on the processing

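The log2 fold change of *chuk* passed the threshold in neither the setting used nor any fit without 1 replicate (−0.17 to 0.00997), and turned positive with 11 other references. These were all 5 reference genes (0.24), the 4 without *acta1b* (0.0598), *hprt1* alone (0.0514), *rpl13a* alone (0.0396), *b2m* alone (0.41), *acta1b* alone (0.95), the mean (0.19) or median (0.0821) of the pathway genes, the positive PCR control (0.0332), raw Ct (0.25), and *hprt1* with *rpl13a* (0.0455). It was also at 0.00997 without WT replicate 1. For *ikbkb* the value was −0.60 to −0.34 with 1 replicate left out. It lost the call with all 5 reference genes (−0.20), the 4 without *acta1b* (−0.38), *hprt1* alone (−0.39), *rpl13a* alone (−0.40), *b2m* alone (−0.0341), the mean (−0.25) or median (−0.36) of the pathway genes, the positive PCR control (−0.41), raw Ct (−0.20), and *hprt1* with *rpl13a* (−0.40), and became 0.51 with *acta1b* alone. The number of called genes, 19 with 16 lower and 3 higher, was 30 with *nono* alone (29 lower, 1 higher), 44 with *b2m* alone (5 and 39), 58 with *acta1b* alone (3 and 55) and 11 with the positive PCR control (9 and 2). With all 5 reference genes 7 were lower and 19 higher, with the mean of the pathway genes 9 and 18, with their median 9 and 7, and with raw Ct 7 and 21. In fits with *nono*, *b2m*, *acta1b* or the positive PCR control alone, and in the fit with a replicate block, the standard error came out identical for every gene, and those p-values may be too small. It was 10 to 18 with 1 replicate left out, 12 without WT replicate 2 and 10 without WT replicate 3. The change in distance between the kinases was 0.29 to 0.56 with 1 replicate left out and passed the threshold at 0.44 with a variance trend and a robust prior (adjusted p = 0.0309 from limma, the lowest of a range up to 0.212). The interval of this last fit is as narrow for its standard error as with *nono* alone, so its p may also be too small. Same-numbered replicates did not deviate together in ΔCt (correlations over 84 genes of −0.22, 0.09 and −0.05). Because ΔCt removes an offset common to a plate, this cannot tell whether the numbers mark a shared batch. With the replicate number as a block, *ikbkb* was at −0.50 (adjusted p = 0.0114 from limma), *chuk* at −0.06 (adjusted p = 0.851), the change in distance at 0.44 (adjusted p = 0.139) and 16 genes were called. The cause of these differences between settings was not tested.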
